A study of Mus musculus with 6 samples.

Results

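Carbonic anhydrases are zinc enzymes that convert carbon dioxide and water into bicarbonate and a proton, and back. In salivary glands they supply bicarbonate for the fluid that duct and acinar cells secrete, and a secreted member of the family is carried into saliva. Family members differ in where they sit. Some are cytosolic, some are anchored to the outer face of the plasma membrane, where they handle acid released by the cell, and CA9, a transmembrane member, is a widely used marker of cells with active hypoxia-inducible factor (HIF).

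The values of 7 carbonic anhydrase genes, *Car2*, *Car4*, *Car6*, *Car8*, *Car9*, *Car12* and *Car13*, were taken from 47643 gene IDs in 3′-end RNA-seq counts of mouse salivary gland organoids (mSGOs). They were chosen by name, and each symbol matched 1 Ensembl ID in the GENCODE annotation of GRCm39. The mSGOs were grown from submandibular glands of C57BL/6 mice aged 8 to 12 weeks and were neither irradiated nor treated, and the only difference between the groups was the day of collection, 5 or 7 days in culture. Each group held 3 libraries, 1 per mouse, and the same 3 mice gave both groups. All libraries shared the WRY medium in Matrigel, which contained Wnt3a- and R-spondin1-conditioned media, EGF, FGF2, N2, insulin, dexamethasone and the ROCK inhibitor Y27632. The labels do not say whether organoids of a mouse were pooled from several wells.

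The libraries held 1918198 to 2837397 counts in genes. Reads under the closing entries that name no gene made up 13.7% to 14.4% of reads at day 5 and 9.12% to 9.74% at day 7. The kinds of such reads were not separated, and their part in the results below was not tested. Day 7 libraries differed from each other more than day 5 libraries did, with biological coefficients of variation of 0.291 and 0.0900. Mitochondrially encoded protein genes took 2.60% to 2.72% of counts at day 5 and 2.26%, 0.926% and 0.924% in mice 1, 2 and 3 at day 7, so mouse 1, the highest in *Car9*, stood apart from the other mice of that day, and the part of this in the results was not tested. Epithelial markers (*Epcam*, *Cdh1* and 4 keratins) summed to 10380 to 17383 counts per 1000000 (CPM) in a library. Of the secreted salivary products listed as markers, *Ren1* and *Bpifa2* had no count and *Smgc* had 1 count in all. No library came from gland tissue, so a loss against the gland of these mice cannot be read from these counts. The acinar channel *Aqp5* was at 5.02 to 24.0 CPM and the duct marker *Nkd2* at 42.2 to 84.2 CPM. The 11 acinar secretory genes in the files summed to 7.03 to 12.6 CPM at day 5 and 11.9 to 35.7 CPM at day 7.

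A first question was which members these cells transcribed. *Car12* was the most abundant at both days, followed by *Car13*, while *Car9* was low at day 5 and spread widely at day 7. Counts were found for 5 of the 7 members, and *Car4* and *Car6* had none. Since 3′-end libraries give about 1 read per transcript, CPM were not divided by gene length when genes were compared. In these bulk samples a lower level can mean fewer cells of a type or less RNA per cell, which cannot be told apart.

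**Figure D1:**
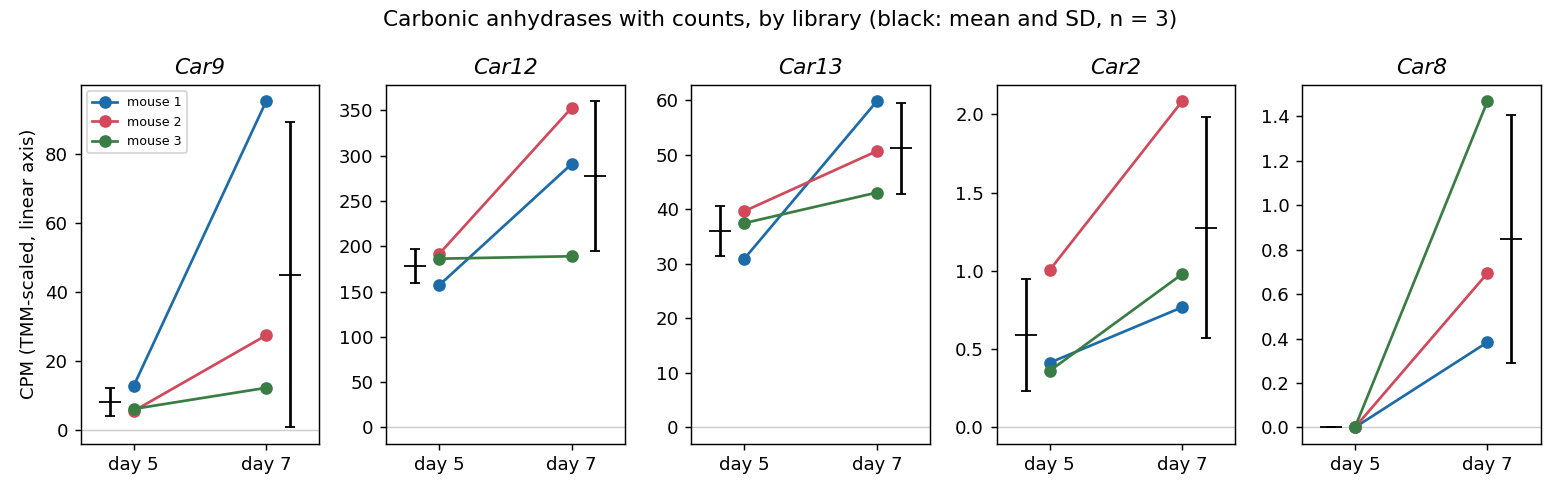
CPM of the 5 carbonic anhydrases with counts in each library, on linear axes with a scale of their own; lines join the libraries of a mouse, and black bars show the mean and SD of the 3 libraries of a day. *Car9* reached 95.1 CPM in mouse 1 and 12.2 CPM in mouse 3 at day 7, and *Car12* of mouse 3 stood at 186 and 189 CPM.

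*Car9* (ENSMUSG00000028463, GRCm39 chromosome 4, 43506966 to 43513729, plus strand) was the member that rose past the threshold, set at a change of more than 0.6 in either direction on the log2 scale together with an adjusted p below 0.05. Its level at day 5 was 12.8, 5.52 and 6.12 CPM in mice 1, 2 and 3, from 31, 11 and 17 counts. At day 7 it was 95.1, 27.4 and 12.2 CPM, from 248, 79 and 25 counts. The groups overlapped, because mouse 3 at day 7 lay just under mouse 1 at day 5, but the day 7 library was the higher in each mouse. Its mean was 8.14 ± 4.03 CPM at day 5 and 44.9 ± 44.1 CPM at day 7 (SD, n = 3), which is a rise of 2.46 ± 0.54 (SE) in log2 units (edgeR adjusted p = 0.00535). Within mice 1, 2 and 3 the log2 differences, with 0.5 CPM added, were 2.85, 2.21 and 0.94. Mouse 1 was the highest of the 3 mice at both days.

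How large the *Car9* rise was rested on mouse 1. Without its day 7 library the log2 fold change was 1.30 ± 0.39 (SE, edgeR adjusted p = 0.0229). The call was lost without the day 5 library of mouse 2 (2.27, edgeR adjusted p = 0.0636) or of mouse 3 (2.27, edgeR adjusted p = 0.0501), and with the robust option of edgeR (2.46, adjusted p = 0.189); over all alternatives the adjusted p ranged from 2.10e-14 to 0.189.

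Of 15792 genes tested, 12.0% were past the threshold, with 7.22% higher and 4.82% lower at day 7. Against these shares, 1 of the 5 members that could be tested was higher and 0 were lower, and the members at an unadjusted p under 0.05 were *Car8*, *Car9*, *Car12* and *Car13*, where 25.8% of all genes tested met that limit.

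The *Car9* promoter is shown because it is the start site of the member that rose, beside those of *Car12*, the most abundant member, and of *Slc16a3*, a lactate exporter described below. The sequences are the last 120 bases before the RefSeq start of each gene, from a table on GRCm38.p6 that held 4 of the 7 members (*Car4*, *Car6*, *Car9* and *Car12*). Each was placed on GRCm39 by its only exact match, which gave chr4:43506906-43507025 for *Car9*, chr9:66620848-66620967 for *Car12* and chr11:120839773-120839892 for *Slc16a3*, all on the plus strand. GENCODE begins *Car9* at 43506966 and *Car12* at 66615426, upstream of the RefSeq start, so all the *Car12* bases shown lie inside the GENCODE gene. Other starts of these genes were not searched. Capitals mark the letters ACGTG, the core of the site that HIF binds, or its reverse complement CACGT.
Car9: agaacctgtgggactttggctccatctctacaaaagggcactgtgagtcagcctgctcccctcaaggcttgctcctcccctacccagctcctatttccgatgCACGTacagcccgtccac
Car12: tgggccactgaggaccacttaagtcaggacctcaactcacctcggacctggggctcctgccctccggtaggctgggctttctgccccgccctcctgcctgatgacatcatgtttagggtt
Slc16a3: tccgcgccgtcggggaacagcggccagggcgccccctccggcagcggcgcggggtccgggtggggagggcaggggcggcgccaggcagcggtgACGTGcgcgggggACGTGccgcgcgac

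In the *Car9* promoter the motif lay on the opposite strand, 18 to 14 bases before the RefSeq start. The *Slc16a3* promoter held it on the same strand at 27 to 23 and 14 to 10 bases before the start. No match to ACGTG or to GCGTG, the other core searched on both strands, was found in the 300 bases of the *Car12* entry, which run from 250 before to 50 after the start. *Car4* and *Car6* held ACGTG in that window, and in *Car6* its match on both strands was the palindrome CACGTG. Such matches are common: 24.7% of 13669 promoters of tested genes held ACGTG and 60.3% held ACGTG or GCGTG, against 62.5% and 84.4% of 32 promoters of the HIF target genes listed below. A match is a string of letters, and binding was not measured here.

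*Car12* (ENSMUSG00000032373, chromosome 9, 66615426 to 66674186, plus strand) encodes the other transmembrane enzyme with an extracellular active site among the members. At day 5 it stood at 157, 191 and 186 CPM in mice 1, 2 and 3, from 380 to 517 counts. At day 7 it stood at 291, 353 and 189 CPM, from 386 to 1016 counts. Mice 1 and 2 were higher at day 7, whereas mouse 3 was level, and its day 7 value lay between the day 5 values. The mean was 178 ± 18.7 CPM at day 5 and 277 ± 82.7 CPM at day 7 (SD, n = 3), with a log2 fold change of 0.64 ± 0.22 (SE) that did not pass (edgeR adjusted p = 0.0635). Within mice the log2 differences were 0.89, 0.88 and 0.02.

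The *Car12* call turned on a single library and on settings. Without mouse 3 at day 7 the log2 fold change was 0.85 and past the threshold (edgeR adjusted p = 0.000878), and it also passed without the filter on low counts (adjusted p = 0.0204) and with the robust option (adjusted p = 0.0495), within a range over all alternatives from 0.000878 to 0.664.

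*Car4*, which encodes an enzyme held to the outer membrane by a lipid (GPI) anchor and found in capillary endothelium among other sites, had 0 counts in all 6 libraries. Over the 3 libraries of a day a count of 0 allows up to 3 counts, or 0.417 CPM at day 5 and 0.398 CPM at day 7, counting error only. Among the endothelial markers, *Cdh5*, *Tek* and *Erg* also had no count. The 10 markers summed to 10.8 to 12.4 CPM at day 5 and 13.5 to 25.9 CPM at day 7, nearly all of it from *Egfl7*.

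*Car13* (ENSMUSG00000027555, chromosome 3, 14706783 to 14728077, plus strand) encodes a cytosolic enzyme. Its day 5 levels were 30.9, 39.7 and 37.5 CPM in mice 1, 2 and 3, from 75 to 104 counts. Its day 7 levels were 59.8, 50.7 and 43.1 CPM, from 88 to 156 counts. All day 7 values were above all day 5 values, a separation that 15.4% of tested genes showed in this direction, although the distance between the groups was small. The mean was 36.0 ± 4.54 CPM at day 5 and 51.2 ± 8.39 CPM at day 7 (SD, n = 3), with a log2 fold change of 0.51 ± 0.22 (SE) that did not pass (edgeR adjusted p = 0.148). It passed without mouse 3 at day 7 (0.62, edgeR adjusted p = 0.0250, range over all alternatives 0.0250 to 0.893).

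*Car2* encodes the fast and widespread cytosolic enzyme, which is prominent in the ducts of the adult gland and in red blood cells. The gene (ENSMUSG00000027562, chromosome 3, 14951317 to 14967568, plus strand) was close to the floor in mSGOs. Its counts were 1, 2 and 1 at day 5 and 2, 6 and 2 at day 7 in mice 1, 2 and 3. The groups overlapped, and the mean was 0.592 ± 0.358 CPM at day 5 and 1.28 ± 0.707 CPM at day 7 (SD, n = 3). The ratio of the summed counts was 2.39, with a 95% counting interval from 0.689 to 10.4, so a difference was not detectable at this depth (edgeR adjusted p = 0.417). Of 8 erythroid markers, 6 had no count in any library, among them 4 globin genes. These were not checked for sequence shared with other genes, whose reads may go uncounted.

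*Car8* (ENSMUSG00000041261, chromosome 4, 8141533 to 8239088, minus strand) encodes a cytosolic carbonic anhydrase-related protein that lacks catalytic activity and binds the inositol trisphosphate receptor ITPR1. It had 0 counts in each day 5 library and 1, 2 and 3 counts at day 7, or 0.384, 0.694 and 1.47 CPM. Its level at day 7, as counted, was 1.91-fold the limit of 3 counts over the day 5 libraries. The lower 95% counting limit of the ratio, which also allows for error in the day 7 counts, was 1.12. The test did not pass (edgeR adjusted p = 0.114), and the 6 counts are too few to place its level. Of the receptors for inositol trisphosphate, calcium channels of the endoplasmic reticulum, 2 of 3 rose: *Itpr1* from 8.42 ± 3.22 to 18.9 ± 5.77 CPM (SD, n = 3; 1.12 in log2 units, edgeR adjusted p = 0.0345) and *Itpr2* by 0.73 (edgeR adjusted p = 0.0238). *Itpr3* did not pass (0.37). Neither call held without the day 5 library of mouse 1 (1.06 and 0.71) or of mouse 2 (0.92 and 0.80), or without mouse 3 at day 7 (0.85 and 0.54), *Itpr2* also missed without mouse 3 at day 5 (0.68), and *Itpr1* without mouse 2 at day 7 (1.21), with library totals only (1.03) and with DESeq2 (1.13).

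*Car6* encodes the secreted enzyme of saliva, a product of serous acinar cells. It had 0 counts in all 6 libraries, with the same limits as *Car4*. Of the acinar secretory genes, *Lpo*, *Bpifa2*, *Dcpp1* and *Dcpp2* had no count either, although sequence shared with other genes was checked only for the members. *Aqp5*, the acinar water channel, was at 7.53 CPM at day 5 and 14.9 CPM at day 7 and did not pass (edgeR adjusted p = 0.123), while *Pip*, another secreted salivary product, rose from 0, 2 and 1 counts to 1, 24 and 21 counts in mice 1, 2 and 3 (edgeR adjusted p = 0.0143).

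The order of mean levels was *Car12*, *Car13*, *Car9*, *Car2* and *Car8* at both days. *Car12* was above the next member in each of the 6 libraries. At day 5 each *Car13* value was above each *Car9* value, and at day 7 the *Car9* values (12.2 to 95.1 CPM) spanned those of *Car13* (43.1 to 59.8 CPM), so the 2 genes were not ordered beyond their spread. *Car12* made up 78.0% to 80.9% of the CPM of all members at day 5. At day 7 it made up 65.1% in mouse 1, where *Car9* took 21.3%, and 81.3% and 76.6% in mice 2 and 3. The coefficient of variation over the 3 libraries of day 5 was 49.5% for *Car9* and 60.4% for *Car2*, against 10.5% for *Car12* and 12.6% for *Car13*. At day 7 it was 98.2% for *Car9*, 65.8% for *Car8*, 55.4% for *Car2*, 29.8% for *Car12* and 16.4% for *Car13*.

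Of the 9 other carbonic anhydrases, the mitochondrial *Car5b* was the one with more than 3 counts. It stood at 13.4 ± 0.770 CPM at day 5 and 20.5 ± 3.00 CPM at day 7 (SD, n = 3), with each day 7 value above each day 5 value, and its log2 fold change of 0.62 did not pass (edgeR adjusted p = 0.146). It passed without mouse 3 at day 7 (0.71, edgeR adjusted p = 0.0435). *Car1*, *Car5a*, *Car10* and *Car14* had no count, and *Car3*, *Car7*, *Car11* and *Car15* had 1 to 3 counts in all. *Ptprz1*, a receptor phosphatase with a carbonic anhydrase-like domain that lacks the enzyme activity, was at 121 and 131 CPM and did not pass (0.12).

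Enzymes of this family work beside proteins that carry bicarbonate, protons and lactate across membranes, and those were examined as lists. Of 16 genes of bicarbonate transport, 10 were tested, 1 was higher and 1 was lower, with a median log2 fold change of 0.02 against -0.01 over all genes tested. *Slc4a4*, which couples bicarbonate to sodium at the basolateral membrane of secretory epithelia, rose from 23.6 ± 7.40 to 75.7 ± 1.18 CPM (SD, n = 3; 1.67 in log2 units, edgeR adjusted p = 0.000179). Its day 7 values lay within 74.4 to 76.7 CPM. *Slc4a11*, an electrogenic proton-permeable transporter named with the bicarbonate carriers by homology, fell by 0.80 on the log2 scale (edgeR adjusted p = 0.0160), from 110 ± 14.1 to 63.3 ± 11.3 CPM, and missed the threshold without mouse 1 (-0.73) or mouse 3 (-0.75) at day 5 and without mouse 2 at day 7 (-0.65). *Slc4a7* was the most abundant of the list, at 213 and 205 CPM, and did not pass.

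**Figure D2:**
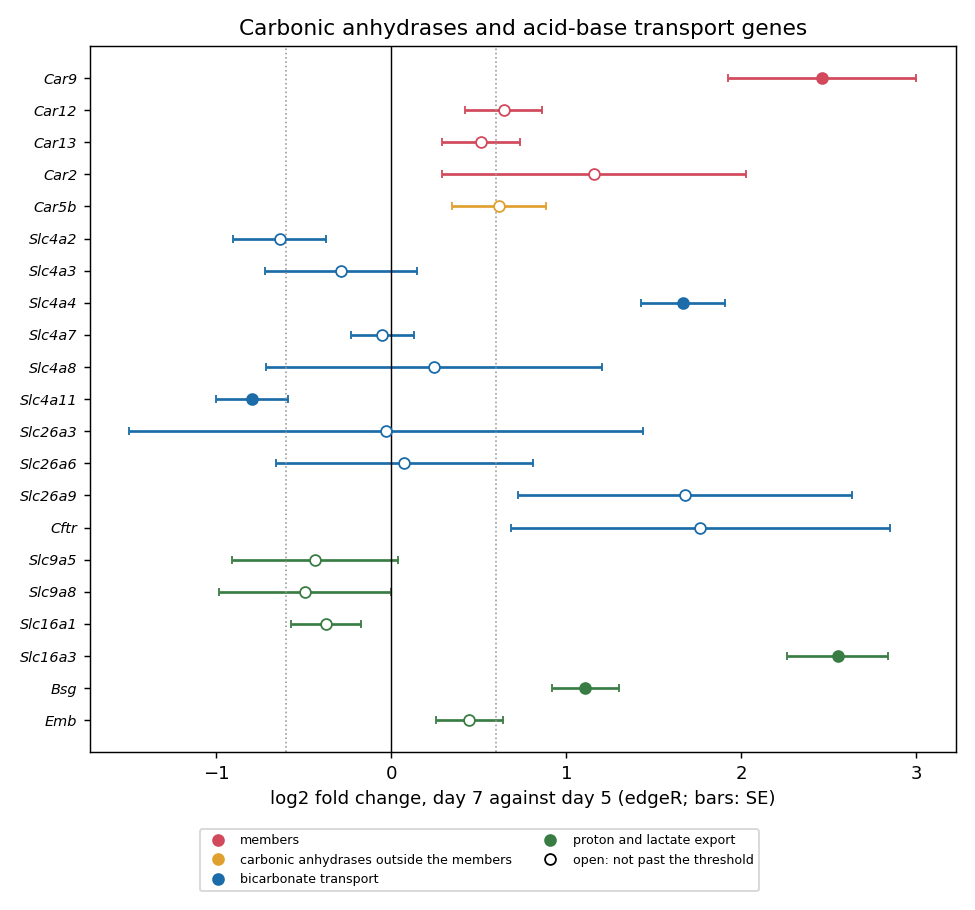
Log2 fold change of day 7 against day 5 with its SE for the carbonic anhydrases and acid-base transport genes that were tested, had counts at both days and are reported here; filled points are past the threshold and dotted lines mark 0.6. Of the filled points, *Car9* (2.46), *Slc16a3* (2.55), *Slc4a4* (1.67) and *Bsg* (1.11) stood to the right and *Slc4a11* (-0.80) to the left.

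Of 14 genes of proton and lactate export, 7 were tested, 2 were higher and 0 were lower. *Slc16a3* (MCT4), which exports lactate together with a proton from glycolytic cells, rose from 15.7 ± 6.70 to 93.1 ± 21.9 CPM (SD, n = 3; 2.55 ± 0.29 (SE) in log2 units, edgeR adjusted p = 1.39e-05). Its day 7 values were 93.2, 71.2 and 115 CPM in mice 1, 2 and 3, so unlike *Car9* it was highest in mouse 3. *Bsg* (basigin), the chaperone that brings this transporter to the surface, rose from 120 ± 17.9 to 259 ± 19.9 CPM, or by 1.11 in log2 units (edgeR adjusted p = 0.000809). *Slc16a1*, another lactate carrier, did not pass (-0.37).

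*Car9* is a direct target of HIF in many epithelia, and 27 other HIF target genes were set beside it. All 27 were tested, 15 were higher and 0 were lower, where 7.22% of all genes tested were higher, and the median log2 fold change was 1.03. The genes with the smallest p were *Bnip3* (3.06), a mitophagy receptor, *Ndrg1* (3.39), *Egln3* (3.09), an oxygen-sensing prolyl hydroxylase, and *Ero1a* (2.28), an oxidase of the endoplasmic reticulum, each with day 7 values above all day 5 values. The list was written with earlier results for *Bnip3*, *Ndrg1* and *Egln3* known and gives no independent support. Of 7 HIF subunits and regulators, *Epas1* (HIF-2α) rose by 1.01 on the log2 scale (edgeR adjusted p = 0.0107), but missed the threshold without mouse 1 (0.96) or mouse 2 (0.92) at day 5 and without mouse 2 at day 7 (0.91). *Hif1a*, at 346 CPM at day 5, did not pass (0.53, edgeR adjusted p = 0.0798).

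**Figure D3:**
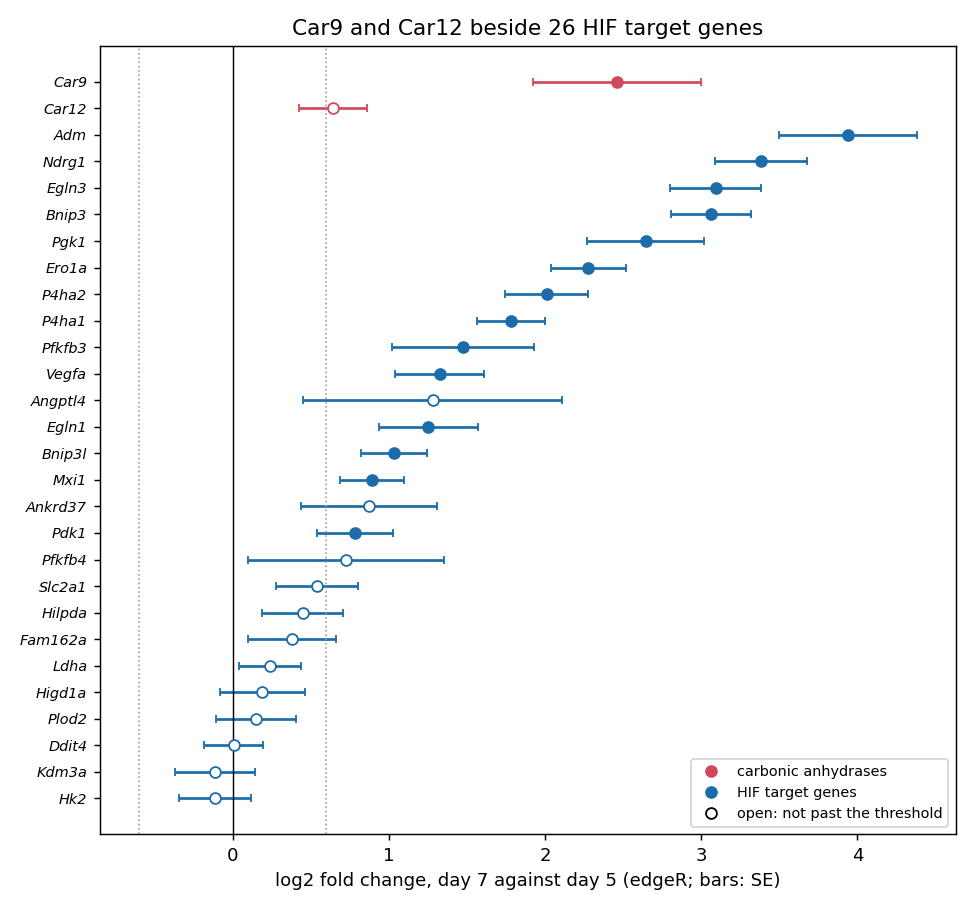
Log2 fold change of day 7 against day 5 with its SE for *Car9*, *Car12* and the 26 HIF target genes with counts at both days (*Stc2* had none at day 5); filled points are past the threshold. *Car9* (2.46) lay between *Pgk1* (2.64) and *Ero1a* (2.28), and *Hk2* (-0.11) was the lowest.

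The order of the mice was also compared. At day 7 *Car9* was highest in mouse 1 and lowest in mouse 3, an order shared by 19 of the 27 HIF target genes (70.4%) and by 19.7% of all genes tested. The difference between the days was smallest in mouse 3 for *Car9*, *Car12* and *Car13*. The same held for 23 of the 27 HIF target genes (85.2%) and for 36.8% of all genes tested. Genes measured in the same 3 mice are not independent of each other, and the list gives no independent support here either. What set the order of the mice was not tested. *Car2* and *Car8* had their smallest difference in mouse 1. The summed level of the HIF target genes was 2106 to 2536 CPM at day 5 and 6045, 4554 and 3531 CPM in mice 1, 2 and 3 at day 7.

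The genes whose log2 CPM followed *Car9* most closely over the 6 libraries, among 9606 named genes averaging 5 CPM or more, were *Btg1* (Pearson r = 0.996), *Adamts1* (0.990) and *Klf10* (0.989). This is a description of 6 points that share 3 mice and 2 days. *Btg1* was at 39.6, 30.6 and 33.1 CPM at day 5 and 64.1, 47.9 and 39.7 CPM at day 7, so it had the same order of mice as *Car9* at day 7 over a much narrower range. None of the 3 genes passed the test of day, with log2 fold changes of 0.55, 0.79 and 0.49.

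Markers of other cells were at the floor or low, apart from *Fabp4*. Of 10 macrophage markers 7 had no count, *Cd68* rose and *Cx3cr1* fell, and the list summed to 2.16 to 2.89 CPM at day 5 and 3.45 to 6.85 CPM at day 7. The fibroblast list summed to 0.360 to 0.502 CPM at day 5 and 1.39 to 1.96 CPM at day 7, and of the ionocyte markers *Foxi1*, *Ascl3* and *Bsnd* had no count. The list of muscle and adipocyte genes moved with *Car9*, from 161 to 209 CPM at day 5 to 1814, 397 and 272 CPM in mice 1, 2 and 3 at day 7. This was almost all *Fabp4*, a fatty acid binding protein, at 1806 CPM in mouse 1, whereas the defining *Adipoq*, *Plin1*, *Lep* and *Ckm* had no count. The muscle actin *Acta1* went from no count at day 5 to 20, 24 and 7 counts in mice 1, 2 and 3 at day 7 (edgeR adjusted p = 0.000315). The part of these genes in the result was not tested. At day 5 the luminal duct markers summed to 1271 to 1525 CPM. At day 7 they summed to 1656, 2147 and 2784 CPM in mice 1, 2 and 3, with mouse 3 the highest. They did not move as one: *Krt19*, *Cldn4* and *Clic1* were higher, and *Krt8* was lower (-0.65, edgeR adjusted p = 0.0374). The granular and striated duct markers summed to 45.7 to 64.1 CPM and 43.0 to 88.1 CPM, mostly from *Nkd2*, which did not pass. Of that list *Egf* was lower (edgeR adjusted p = 0.0499). The myoepithelial markers summed to 0 to 0.412 CPM and 3.43 to 11.1 CPM. The basal duct markers summed to 12050 to 15989 CPM and 9035 to 13580 CPM, where only *Krt15* passed, and it was higher (1.32, edgeR adjusted p = 0.00440).

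**Figure D4:**
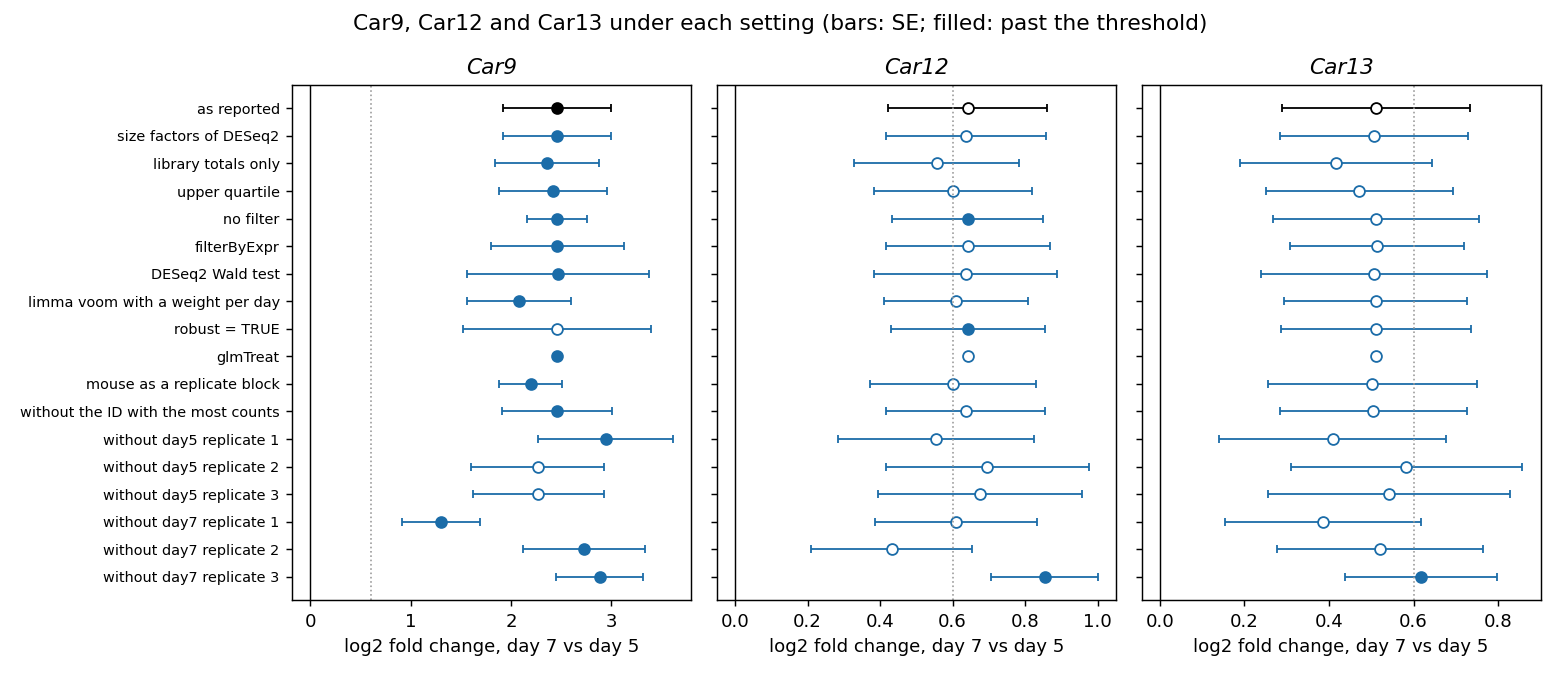
Log2 fold change of *Car9*, *Car12* and *Car13* as reported (black) and under each other setting (blue), with SE where the method gives one; filled points are past the threshold and the dotted line marks 0.6. *Car9* stayed between 1.30 and 2.94, *Car12* between 0.43 and 0.85 and *Car13* between 0.39 and 0.62.

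Counts of the members were also checked for reads that could belong elsewhere. In the last 500 bases, where a 3′-end library reads, 25 of 470 stretches of 31 bases of *Car9* occur in transcripts of other genes. Those stretches were found in 735 other genes, and the part of shared reads in the *Car9* counts was not tested. None of the 470 stretches in each other member occurs elsewhere. Exons of *Car9* overlap *Gm12454* over 670 bases and those of *Car12* overlap *Aph1b* over 293 bases, both on the opposite strand and outside the last 500 bases of the gene on the genome. Whether the counting used strand is not given in the sources used here.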

How the data were processed

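RNA was prepared by the authors with the Lexogen QuantSeq 3′ kit from 100 ng of intact RNA, and the reads were aligned to GRCm39; edgeR is named in the submitters' processing notes. The aligner, counter, annotation release and treatment of multi-mapped reads are not given in the sources used here. The deposited values are raw whole-number counts per Ensembl gene ID, 1 file per library. The 5 closing entries that name no gene were left out. Names came from GENCODE vM39, which matched 43465 of 47643 IDs (91.2%).

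A gene was tested if 2 or more libraries held 1 or more counts of it, the study's own filter. The days were compared in edgeR 4.0.16 (two-sided quasi-likelihood test, R 4.3.3, TMM, robust = FALSE, day as the only term), with Benjamini-Hochberg adjustment over all genes. The members, lists and tests were chosen with earlier results of these data known. Named genes were all members and other carbonic anhydrases, up to 4 genes with the smallest p among those past the threshold in each transport or HIF list, all genes of lists of 3 or fewer, the 3 genes most like each member past the threshold, and the markers of other cell types; other transport, HIF and acinar genes named beside them were chosen after their values were seen. One listed gene each of the receptor phosphatases and acinar markers was not analysed here, and 1 gene of the proton and lactate list is not reported here. The test was checked on simulated counts.

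Per the labels, a number marks a mouse, so day 5 and day 7 libraries are paired; deviations from the day means correlated at 0.13, -0.10 and 0.16 for mice 1, 2 and 3 across 8172 genes. No libraries agreed within sampling noise (smallest chi-square per degree of freedom 2.09). Alternatives were other scalings, filters, tests (DESeq2 1.42.0, limma 3.58.1) and sets of libraries. A CPM is a count per 1000000 of the TMM-scaled library size. Intervals and floors cover counting error only, since reads carried no molecular identifiers. P-values rest on the spread between 3 mice a day, drawn toward a trend over all genes that both days share. The reported fit did not use the pairing by mouse.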

Additional observations from a re-analysis of the deposited data

How the results depend on the processing

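The direction of all 5 members tested was the same under every alternative in which they were tested. The number of members past the threshold, 1 as reported, was 2 with no filter and 0 to 3 in the fits without 1 library: 0 without day 5 of mouse 2 or of mouse 3, where *Car9* missed, and 3 without day 7 of mouse 3, where *Car12* and *Car13* were added. With the robust option it was again 1, but the gene was *Car12* and not *Car9* (log2 fold change 2.46, edgeR adjusted p = 0.189); the cause was not tested. In the fits without 1 library *Car9* ranged from 1.30 to 2.94. With the mouse as a replicate block *Car9* was at 2.20 (edgeR adjusted p = 2.24e-10) and *Car12* at 0.60 (edgeR adjusted p = 0.0572). Among the members and the named genes of the transport, inositol trisphosphate receptor and HIF lists, the block changed only the call of *Stc2*. That call was lost (edgeR adjusted p = 0.0777). The cell type markers and the genes most like *Car9* were not examined with the block. Over all genes, 1901 were past the threshold, 622 with glmTreat, which tests against a minimum change, and 797 to 2576 without 1 library. Of them 1140 were higher and 761 lower, or 950 and 1008 with library totals only. The lists of other carbonic anhydrases, receptor phosphatases, transport, inositol trisphosphate receptors and HIF were also counted together. Of their genes 22 were past it, 11 with glmTreat and 13 to 27 without 1 library. With glmTreat 8 HIF target genes and 0 inositol trisphosphate receptors passed, and without day 5 of mouse 2 the HIF target genes fell from 15 to 9. *Car2* and *Car8* were too low for filterByExpr. Their values are limited by depth: 14 and 6 counts in all.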
